A study of Mus musculus with 15 samples.

Results

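Of 32543 gene entries with a usable name in the deposited table, 8 were regulatory T cell genes chosen by name: Foxp3, Il2ra, Ikzf2, Tnfrsf4, Tnfrsf9, Tnfrsf18, Ccr8 and Il10. Each was read in 15 tumors harvested on 5 days, and Foxp3 was also expressed per unit of the T cell transcripts Cd3e, Cd8a and Cd4 in each tumor. Foxp3, Tnfrsf18 and Il10 stood highest on day 3 of poly(I:C) treatment, with mean levels of 7.72, 8.25 and 4.46 CPM against 2.78, 2.20 and 0.819 CPM in untreated tumors. None of these differences passed edgeR's test after adjustment over all genes, and 1 day 3 tumor and 1 day 5 tumor carried much of the higher means. Foxp3 per Cd3e was not higher on day 3: it was 0.553 ± 0.0763 (SD, n = 3) against 0.991 ± 0.531 (SD, n = 3) on day 0.

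Regulatory T cells are CD4+ T cells that restrain other lymphocytes and are defined by the transcription factor FOXP3. They hold high levels of the IL-2 receptor alpha chain, take up IL-2 made by other T cells and signal through STAT5, and in tumors many of them also carry the TNF receptor family members OX40, 4-1BB and GITR and the chemokine receptor CCR8. None of these genes except Foxp3 is close to specific for the lineage in mice, since activated effector T cells, NK cells and macrophages can transcribe several of them.

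The tumors grew under the skin of wild-type female BALB/c mice from WEHI-164, which is a single mouse fibrosarcoma line, so all 15 share 1 line and 1 strain. Day 0 tumors (3) were untreated, and tumors of day 1, day 3, day 5 and day 7 (3 each) came from mice given poly(I:C), a synthetic double-stranded RNA sensed by TLR3, directly in the tumor. The labels state 1 µg in 25 µL each day for 6 doses. The study's methods for this sequencing also give 1 µg daily for up to 6 days and list day 0 as untreated. One of the supplementary legends states another dose, and both that legend and a main figure legend speak of vehicle-treated tumors in this time course. The dose is therefore uncertain, and day 0 is called untreated here as in the labels. No untreated tumor of a later day was analysed here, so time, the injection and poly(I:C) cannot be told apart. The number of doses received by each day was not given. Whole tumor poly(A) RNA was sequenced, and in such bulk RNA fewer cells of a type and less RNA per cell cannot be told apart.

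Totals ran from 23713090 to 31913106 counts per tumor. Levels are given as CPM, each gene's counts relative to the total after TMM scaling, which adjusts library sizes for differences in RNA composition. Day 3 replicate 1 stood apart: averaged over the remaining tumors, the correlation of its log2 levels with theirs was 0.884, where each of them reached at least 0.956. Its skeletal muscle markers had a mean log2 CPM of 7.97 (-1.73 to 3.76 in the other 14 tumors), its adipocyte markers 3.53 (-2.69 to 1.18) and its T cell markers 5.15 (0.49 to 4.31). Day 5 replicate 1 had the second highest T cell markers, at 4.31, with muscle markers at -1.64. Fibroblast and tumor markers were high in every tumor, between 9.31 and 10.42.

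Foxp3 (ENSMUSG00000039521.13) encodes the factor that defines the lineage and lies on the plus strand of chromosome X from 7573644 to 7595245 (GRCm38). It stood at 3.51, 2.23 and 2.60 CPM in the day 0 tumors and at 2.21, 2.35 and 3.05 CPM on day 1. On day 3 the tumors gave 13.3, 4.04 and 5.84 CPM, and on day 5 they gave 15.3, 2.95 and 2.16 CPM. All 3 day 3 tumors lay above all day 0 tumors, whereas on day 5 replicate 1 alone was high and the other two lay within the day 0 range or below it. Day 7 tumors gave 2.48, 2.47 and 1.42 CPM, which overlapped day 0. These levels rested on 34 to 417 Foxp3 counts per tumor. Exons of Foxp3 share 853 bases, 18.6% of its exonic length, with the noncoding gene Flicr on the same strand, whose counts were not analysed here and whose reads stranded counting would not separate. They also share 590 bases (12.9%) with Ccdc22 on the opposite strand, and the strandedness of the counting was not given. Ccdc22 held 916 counts in day 3 replicate 1, its lowest value, and 1122 in day 5 replicate 1. The part of shared reads in the Foxp3 counts was not tested.

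Ikzf2 (ENSMUSG00000025997.13, minus strand of chromosome 1 from 69531214 to 69687245) encodes Helios, an Ikaros family factor found in most thymus-derived regulatory T cells and in other lymphocytes. Its day 0 levels of 8.77, 7.67 and 7.53 CPM were close together. On day 3 it stood at 16.7, 6.54 and 7.70 CPM and on day 5 at 12, 5.48 and 5.89 CPM. The replicate 1 tumors of both days were high, and every other tumor of those days lay below the highest day 0 tumor. Day 7 tumors, at 5.25, 6.24 and 4.35 CPM, all lay below day 0.

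Il2ra (ENSMUSG00000026770.5, plus strand of chromosome 2 from 11642807 to 11693193) encodes CD25, the alpha chain of the high-affinity IL-2 receptor. It gave 10.3, 8.60 and 13.1 CPM on day 0 and 7.22, 9.97 and 16.4 CPM on day 1. Levels on day 3 were 22.2, 19.7 and 13.7 CPM, all above day 0, although replicate 3 exceeded the highest untreated tumor by little. Day 5 tumors spread from 4.35 to 35.8 CPM, the widest gap of any day. Day 7 tumors gave 3.38, 7.61 and 3.60 CPM, all below day 0.

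The other chains of the receptor were also read. Il2rb, the signalling beta chain, stood 2.08 ± 0.69 (log2, SE) above day 0 on day 3, and Il2rg, the common gamma chain, stood 1.51 ± 0.51 above it, both with an edgeR adjusted p of 0.115. Il2 itself was nearly absent, with at most 4 counts in any tumor, and did not enter the tests. Of 9 tested genes of the IL-2 pathway, 9 had a positive log2 fold change on day 3, with a median of 1.07 against -0.02 over all genes tested. The values ran from 0.14 for Stat5a to 2.08 for Il2rb, with Stat5b, the closely related signal transducer, at 1.76. The median was 0.73 without day 3 replicate 1. On day 7 against day 3 the same 9 genes had a median of -1.45 and none was above 0.

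The 3 TNF receptor family genes deliver costimulatory signals and lie on chromosome 4. Tnfrsf4 (OX40, ENSMUSG00000029075.6, 156013843 to 156016612) and Tnfrsf18 (GITR, ENSMUSG00000041954.18, 156026164 to 156028895) are neighbours on the plus strand, 9551 bases apart with no protein-coding gene between them. Tnfrsf9 (4-1BB, ENSMUSG00000028965.13, 150914562 to 150946102) lies on the same strand with 83 protein-coding genes between it and Tnfrsf4. Tnfrsf18 shares 414 exonic bases, 27.2% of its exonic length, with the antisense gene Gm16008.

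Tnfrsf18 gave 1.89, 2.23 and 2.48 CPM on day 0. On day 3 it gave 13.2, 6.32 and 5.21 CPM, and on day 5 it gave 12.1, 3.63 and 1.47 CPM. Each day 3 tumor was more than 2 times the highest day 0 tumor, a wider separation than that of Foxp3, while day 5 overlapped day 0 through replicate 3. Day 1 replicate 3 was also high at 5.41 CPM against 2.17 and 1.52 CPM in its group, and day 7 tumors gave 1.38, 3.42 and 0.878 CPM.

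Tnfrsf4 followed the same tumors at a smaller scale. Its levels were 2.60, 2.87 and 3.60 CPM on day 0, then 8.78, 4.78 and 4.63 CPM on day 3 and 11.8, 3.49 and 2.05 CPM on day 5. All day 3 tumors were above all day 0 tumors. Across the 15 tumors the log2 levels of Tnfrsf4 and Tnfrsf18 had a Pearson r of 0.967, the closest of any 2 of the 8 genes, given here as a description.

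Tnfrsf9 was high and low in partly other tumors than the rest of the genes. It was the most abundant, at 40.9, 41.8 and 43.8 CPM on day 0, and ranged only 2.80-fold over all tumors. Its highest tumor was day 1 replicate 3 with 74.0 CPM. The lowest was day 3 replicate 1 with 26.5 CPM, the tumor with the most Ikzf2, Tnfrsf18 and Il10. Day 5 replicate 1, the tumor with the most Foxp3, Il2ra, Tnfrsf4 and Ccr8, was its second highest at 64.6 CPM. Its day means stayed between 39.0 ± 5.26 (SD, n = 3) on day 7 and 48.5 ± 23.1 (SD, n = 3) on day 1. Over all 15 tumors its r was 0.195 with Cd3e and between -0.248 and 0.451 with the remaining 7 genes. Its low r with Foxp3 leaned on its highest and lowest tumors, without which that r was 0.697. The r with the other genes was not computed again without them.

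The ligands of these receptors were low or flat. Tnfsf4, the OX40 ligand, held 3 to 50 counts per tumor and had a log2 fold change of 0.88 ± 0.52 (SE) on day 5 (edgeR adjusted p = 0.859). Its 3 tumors of day 5 lay above day 0, as did those of 6.89% of all genes tested. Tnfsf9, the 4-1BB ligand, had -0.48 ± 0.24 (SE) on day 3 (edgeR adjusted p = 0.188). Tnfsf18, the GITR ligand, held at most 21 counts and did not enter the tests. The median over the 6 tested ligands and TRAF adaptors on day 3 was -0.04 on the log2 scale, and 2 of 6 were above 0.

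Ccr8 (ENSMUSG00000042262.5, plus strand of chromosome 9 from 120092114 to 120094906) encodes a chemokine receptor carried by many tumor-infiltrating regulatory T cells. It was the least abundant of the genes, with 17, 14 and 8 counts on day 0, 39, 10 and 20 on day 3 and 79, 19 and 4 on day 5. The replicate 1 tumors of day 3 and day 5 were the highest, at 1.57 and 2.89 CPM against 0.573, 0.521 and 0.320 CPM on day 0. Replicate 3 of day 3 and replicate 2 of day 5 stood slightly above day 0, at 0.778 and 0.676 CPM, and the remaining tumor of each day lay within or below its range. Day 7 tumors held 2, 9 and 7 counts. The upper limit left by a count of 0 (3 counts, counting error only) lay between 0.0940 and 0.127 CPM, so most Ccr8 levels rested on few reads. The gene passed the filter on low values with 10 tumors above the minimum, 2 of them untreated.

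Among its ligands, Ccl1 had a log2 fold change of 1.54 ± 0.52 (SE) on day 3 and 1.44 ± 0.52 (SE) on day 5 (edgeR adjusted p = 0.115 and 0.859). Ccl1 was itself rare, with 10, 6 and 6 counts on day 0 and 20, 12 and 29 on day 3. Ccl8, a more abundant ligand, had 1.60 ± 0.77 (SE) on day 3 and -2.64 ± 0.80 (SE) on day 7 against day 3 (edgeR adjusted p = 0.18 and 0.0832). Both were above day 0 in each day 3 tumor, as were 19.4% of all genes tested. Ccl22 and Ccl17, ligands of the related receptor Ccr4, had 1.03 ± 0.83 and 0.62 ± 0.84 (SE) on day 3.

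Il10 (ENSMUSG00000016529.5, plus strand of chromosome 1 from 131019845 to 131024974) encodes an inhibitory cytokine made by regulatory T cells, macrophages and other cells. Its day 0 levels were uneven, at 0.337, 1.64 and 0.480 CPM. Day 3 tumors gave 7.01, 3.46 and 2.92 CPM, all above day 0, and day 5 tumors gave 2.23, 2.74 and 0.790 CPM. Unlike Foxp3, Il10 on day 5 did not depend on replicate 1. The gene was above the minimum of the filter in 13 tumors, 2 of them untreated, and the 6 genes other than Il10 and Ccr8 were above it in all 15. Day 1 replicate 3 stood at 3.11 CPM, above the other day 1 tumors at 0.835 and 0.678 CPM, and the day 7 tumors gave 0.732, 1.52 and 0.251 CPM. The receptor gene Il10ra had a log2 fold change of 1.71 ± 0.53 (SE) and Il10rb one of 1.01 ± 0.32 (SE) on day 3, both with an edgeR adjusted p of 0.115. Macrophage markers were highest in the tumor with the most Il10. Their mean log2 CPM was 8.93 in day 3 replicate 1 and 6.23 to 7.74 in the others, and none of the 9 markers was at 0 in any tumor. Il10 also varied with T cell genes, with an r over the 15 tumors of 0.895 with Cd8a and 0.888 with Cd3e. The part of macrophages or of T cells in the Il10 levels was not tested.

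**Figure D1:**
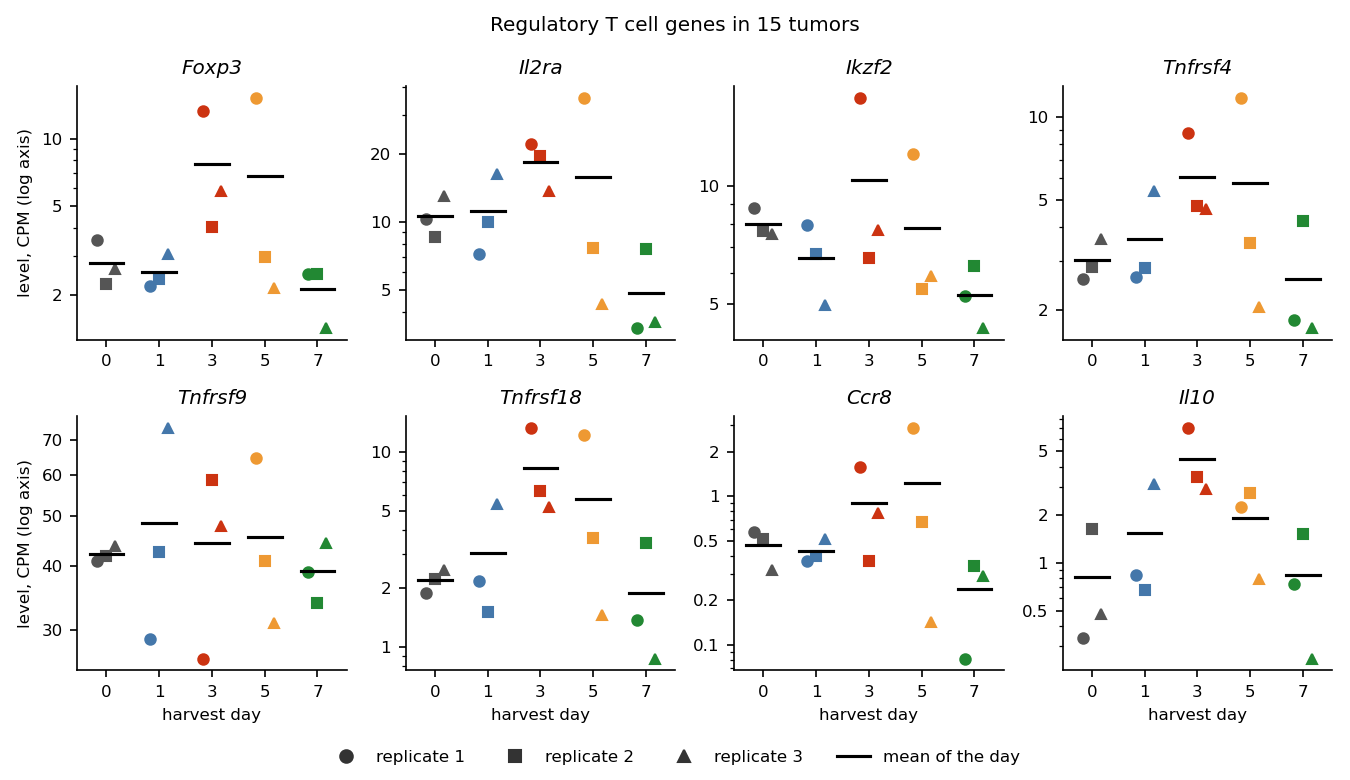
Level of each of the 8 genes in CPM (log axis) by harvest day, with 1 point per tumor (shape marks the replicate number) and a line at the mean of the 3 tumors of a day. Replicate 1 of day 3 and of day 5 is high for Foxp3, Ikzf2, Tnfrsf4, Tnfrsf18 and Ccr8, while Tnfrsf9 stays between 26.5 and 74.0 CPM throughout.

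Per kilobase of exon the order of the median levels over the 15 tumors was Tnfrsf9 with 15.3 CPM per kb, Tnfrsf4 with 2.55, Il2ra with 1.75, Tnfrsf18 with 1.63, Il10 with 1.16, Ikzf2 with 0.577, Foxp3 with 0.569 and Ccr8 with 0.339. Tnfrsf9 stood well apart at the top. The medians of Il2ra and Tnfrsf18, and those of Ikzf2 and Foxp3, differed by far less than the spread of either gene over tumors. Exon length here counts every annotated exonic base once, so the scale is approximate.

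Start site sequences were looked at because most of the genes varied together over tumors. RefSeq promoter windows (250 bases before to 50 after a start site, GRCm38.p6) matched 6 of the 8 genes, and Ikzf2 and Il10 were not among them. The STAT motif TTCNNNGAA, read on both strands, is the type of site bound by STAT5 downstream of IL-2. It occurred in windows of 3 of the 6 genes, Foxp3, Tnfrsf9 and Tnfrsf18, and in 9.55% of 27025 genes with a window. Foxp3 and Tnfrsf9 each had 2 windows at different starts, and only 1 window of each held the motif. A gene with more windows has more places for a match, and 8.3% of all 32851 windows held it. The sites are shown with 10 bases on either side and the motif in capitals, because they are what the 3 matched windows share:
Foxp3, chrX:7580334-7580362, plus strand: gagctctgttTTCCAAGAAcgggcattag
Tnfrsf9, chr4:150927853-150927881, plus strand: caacagctgaTTCCAAGAAacccttcaga
Tnfrsf18, chr4:156026213-156026241, plus strand: tgctctacacTTCACAGAAggcctttaca

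The Foxp3 site lay 139 to 131 bases before the start, that of Tnfrsf9 136 to 128 bases before and that of Tnfrsf18 99 to 91 bases before. The 9 bases were identical in Foxp3 and Tnfrsf9. Each site lay inside the annotated span of its own gene, so these starts lie downstream of the gene's first annotated base. For Tnfrsf9 and Tnfrsf18 the 200 bases before the start also overlapped an exon of the gene itself. The 200 bases before that Foxp3 start (chrX:7580283-7580482, plus strand, 42.5% GC, overlapping an exon of the noncoding gene Flicr) are given with the motif in capitals as context for the gene that defines the lineage:
Foxp3 upstream: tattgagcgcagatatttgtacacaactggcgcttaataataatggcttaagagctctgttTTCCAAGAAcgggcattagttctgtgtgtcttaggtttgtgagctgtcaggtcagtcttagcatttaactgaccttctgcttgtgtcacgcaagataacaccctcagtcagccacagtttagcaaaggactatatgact

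The interferon-stimulated response (ISRE) motif occurred in 0 of the 6 genes and in 3.99% of all genes. The AP-1 motif TGANTCA (8.97% of genes) and the RUNX motif TGTGGT (18.9%) were found in Tnfrsf9 alone, and the NF-kB motif (9.55%) in Il2ra and Tnfrsf9. These are matches of letters in a short window and say nothing of binding.

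The first question of the design was how far each treated day differed from day 0. On day 1, 5 of 8 genes had a positive log2 fold change (49.9% of all genes tested), from -0.29 for Ikzf2 to 0.92 ± 0.80 (SE) for Il10, and edgeR gave an adjusted p of 1 for each. Without day 1 replicate 3, none of the 8 was positive. No member's tumors separated from day 0, against 5.76% of all genes higher and 6.61% lower without overlap. At an unadjusted p under 0.05 edgeR gave none of the 8 (2.18% of all genes higher, 0.981% lower), and at an adjusted p under 0.05 DESeq2 also gave none (0.239% and 0.0194%).

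On day 3 all 8 genes had a positive log2 fold change (48.0% of all genes tested). The largest were Il10 with 2.44 ± 0.82 (SE), Tnfrsf18 with 1.90 ± 0.74, Foxp3 with 1.47 ± 0.65, Tnfrsf4 with 1.00 ± 0.58, Ccr8 with 0.93 ± 0.83 and Il2ra with 0.80 ± 0.62. Ikzf2 and Tnfrsf9 had 0.37 ± 0.37 and 0.07 ± 0.35. None passed edgeR's quasi-likelihood test after Benjamini-Hochberg adjustment over 15494 genes, of which 0% did, and the lowest adjusted p was 0.115 for Il10. At an unadjusted p under 0.05, Foxp3, Tnfrsf18 and Il10 were higher, 3 of 8 where 18.3% of all genes were. In 5 of 8 genes (Foxp3, Il2ra, Tnfrsf4, Tnfrsf18 and Il10) every day 3 tumor exceeded every day 0 tumor, which held for 19.4% of all genes tested.

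DESeq2, run as an alternative, called Il10 alone of the 8 on day 3 (adjusted p = 0.0295), where it called 9.02% of all genes higher. Without day 3 replicate 1 it called none of the 8 and 0.280% of all genes higher, and without day 5 replicate 1 it called 3 of 8, Foxp3, Tnfrsf18 and Il10, where it called 9.26% of all genes higher. In edgeR without day 3 replicate 1 the log2 fold changes were 0.83 for Foxp3, 1.39 for Tnfrsf18, 1.96 for Il10, 0.64 for Tnfrsf4 and 0.66 for Il2ra, still positive, but 0.27 for Ccr8 and -0.16 for Ikzf2. That tumor also held the highest skeletal muscle, adipocyte, B cell and lymph node markers of the series, and their part in these values was not tested. Of the 10 lymph node markers listed, 5 entered the tests, and their mean log2 CPM was 3.91 in this tumor and -1.53 to 1.70 elsewhere.

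On day 5, 7 of 8 genes had a positive log2 fold change (50.3% of all genes tested). Tnfrsf18 and Ccr8 had 1.38 ± 0.73 and 1.38 ± 0.83 (SE), Foxp3 had 1.29 ± 0.64 and Il10 1.23 ± 0.80, with an edgeR adjusted p of 0.859 for each. Replicate 1 decided these values except that of Il10, which was 1.11 without it. Tnfrsf18 then had 0.21, and 2 of 8 were positive, while Foxp3 stood at -0.12, Tnfrsf4 at -0.13, Ccr8 at -0.20 and Il2ra at -0.82. No member separated from day 0, against 6.89% of genes higher and 10.8% lower without overlap. None of the 8 had an unadjusted edgeR p under 0.05 (1.41% of all genes higher, 3.39% lower) or was called by DESeq2 (0.0129% and 0.0516%).

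By day 7 the genes were near or below the untreated level, and 1 of 8 had a positive log2 fold change (44.4% of all genes tested). Il2ra had -1.13 ± 0.64 and Ikzf2 -0.60 ± 0.37 (SE). In these 2 genes every day 7 tumor was below every day 0 tumor, as in 6.26% of all genes. Every edgeR adjusted p was 1. None of the 8 passed at an unadjusted p under 0.05 (1.05% of all genes higher, 1.02% lower) or in DESeq2 (0.0194% and 0.0129%).

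The second question was whether day 7 differed from day 3. The log2 difference was negative for every gene (51.6% of all genes were above 0): Il10 had -2.40 ± 0.82, Tnfrsf18 -2.12 ± 0.75, Il2ra -1.93 ± 0.65, Ccr8 -1.89 ± 0.88, Foxp3 -1.86 ± 0.66, Tnfrsf4 -1.23 ± 0.59, Ikzf2 -0.97 ± 0.37 and Tnfrsf9 -0.18 ± 0.35 (SE). In 7 of the 8, all but Tnfrsf9, every day 7 tumor was below every day 3 tumor, against 18.4% of all genes. The edgeR adjusted p ranged from 0.0852 for Il2ra to 0.703 for Tnfrsf9, so none was called, and at an unadjusted p under 0.05 it gave 5 lower (Foxp3, Il2ra, Ikzf2, Tnfrsf18 and Il10) where 22.6% of all genes were. DESeq2 called Foxp3, Il2ra, Tnfrsf18 and Il10 lower (adjusted p = 0.0291, 0.0197, 0.0262 and 0.0232), where it called 15% of all genes lower, and none of the 8 without day 3 replicate 1, when it called 0.325% of genes lower. Without day 5 replicate 1 it called 6 of 8, adding Ikzf2 and Tnfrsf4, where it called 15.4% of all genes lower. In edgeR without day 3 replicate 1 the log2 differences remained between -1.91 for Il10 and -0.42 for Ikzf2. This comparison and that of day 3 with day 0 share the day 3 tumors.

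Over the 5 days together, edgeR's joint test gave an unadjusted p of 0.0317 for Foxp3, 0.0366 for Il10 and 0.0486 for Tnfrsf18, with adjusted p of 0.292, 0.295 and 0.306. An unadjusted p under 0.05 was reached by 16.2% of all genes. Tnfrsf9 had the highest adjusted p, at 0.946. DESeq2 called none of the 8 over the 5 days, where it called 7.65% of all genes. Without day 5 replicate 1 it called Foxp3, Il2ra and Tnfrsf18, where it called 8.68% of all genes.

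**Figure D2:**
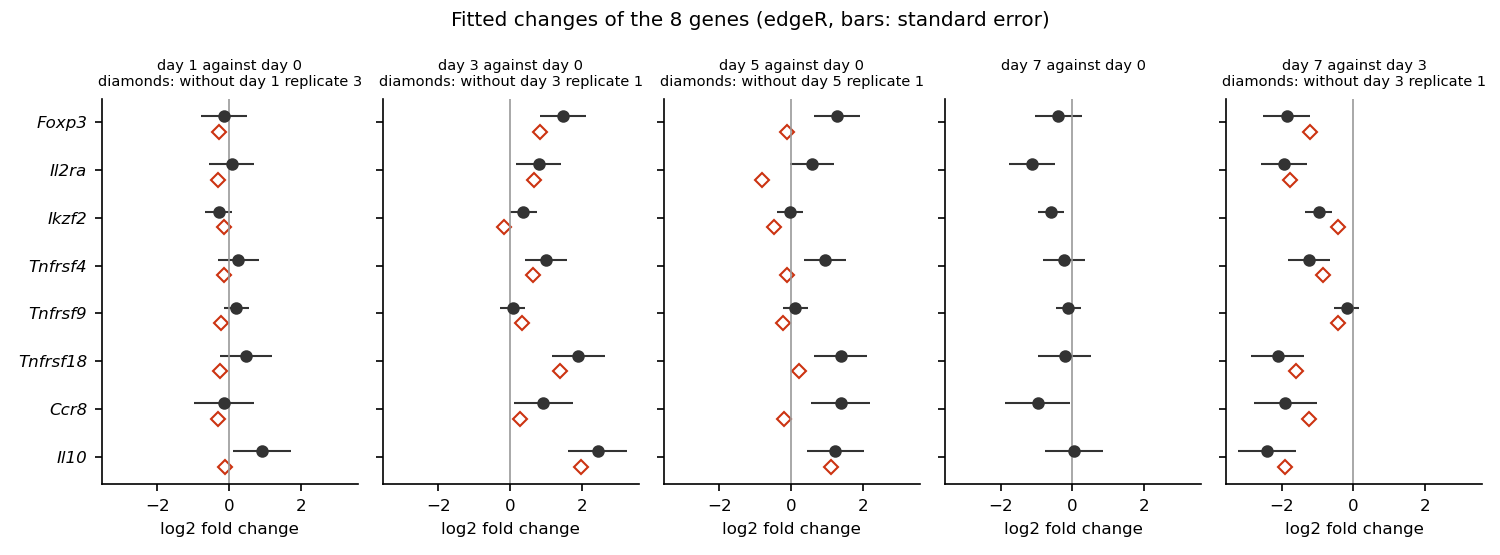
Fitted log2 fold change (x axis) of each gene in 5 comparisons, with points and bars for the edgeR estimate and its standard error over all tumors, and open diamonds for the estimate without the tumor named above the panel. On day 5 the diamonds of 6 genes lie below 0, whereas on day 3 those of 7 genes stay above 0.

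Foxp3 per T cell transcript addressed whether Foxp3 moved in step with T cells. The ratio of counts within a tumor needs no library scaling, and since the genes differ in length it compares tumors and not numbers of transcripts. Foxp3 per Cd3e, the invariant CD3 epsilon chain of all T cells, was 1.60, 0.625 and 0.747 on day 0 and 1.43, 1.05 and 0.452 on day 1. The day 3 tumors gave 0.466, 0.608 and 0.586, those of day 5 gave 0.959, 0.358 and 1.02, and those of day 7 gave 1.79, 0.575 and 2.0. The day 3 tumors lay close together and all below day 0, whereas each of the other days spread more than 2-fold. The day 5 tumor with the most Foxp3 had a ratio inside the day 0 range. The highest ratios, in day 7 replicates 1 and 3, came from the tumors with the fewest Cd3e counts, 34 and 17, and their 95% counting intervals (exact Clopper-Pearson, counting error only) were 1.16 to 2.82 and 1.09 to 3.82.

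The exact permutation test over all 1401400 divisions of the tumors into 5 days gave p = 0.442 (two-sided) for Foxp3 per Cd3e, with 28.9% of the variance of the log2 ratio lying between days. Day 3 against day 0 differed by -0.72 on the log2 scale, with an exact p of 0.1, which is the smallest that 3 against 3 tumors can give, and 0.857 after adjustment over the 15 ratio comparisons made. On day 3 the fitted log2 fold change of Cd3e was 2.29 ± 0.85 (SE) beside 1.47 ± 0.65 for Foxp3, and the difference between them was not detectable with 3 tumors a day. With 1 tumor left out the day 3 difference ranged from -0.992 without day 0 replicate 2 to -0.314 without day 0 replicate 1, the untreated tumor with the highest ratio. Without day 3 replicate 1 it was -0.60.

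Foxp3 per Cd8a, the alpha chain of the coreceptor of cytotoxic T cells, was 0.658, 0.245 and 0.290 on day 0, 0.559, 0.480 and 0.176 on day 1, and 0.275, 0.248 and 0.248 on day 3. Day 5 tumors gave 0.505, 0.116 and 0.353, and day 7 tumors 0.656, 0.195 and 0.493. Day 3 was again the tightest day and lay within the day 0 range. The lowest ratio, in day 5 replicate 2, combined 83 Foxp3 counts with 714 Cd8a counts, an interval of 0.0915 to 0.146. Over the 5 days the exact permutation p was 0.849.

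Foxp3 per Cd4, whose denominator marks helper and regulatory T cells but is also transcribed by some myeloid cells, ran from 0.177 in day 3 replicate 1 to 1.36 in day 7 replicate 1. Day means were 0.407 ± 0.0785, 0.464 ± 0.213, 0.336 ± 0.193, 0.515 ± 0.130 and 0.947 ± 0.589 (SD, n = 3) on days 0, 1, 3, 5 and 7. On day 3 the 3 tumors spread from 0.177 to 0.551, in contrast to their close agreement per Cd3e and per Cd8a. The exact permutation p over the 5 days was 0.373, and 0.0276 without day 7 replicate 2. The adjusted p over the 3 denominators were 0.664 for Cd3e, 0.849 for Cd8a and 0.664 for Cd4.

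**Figure D3:**
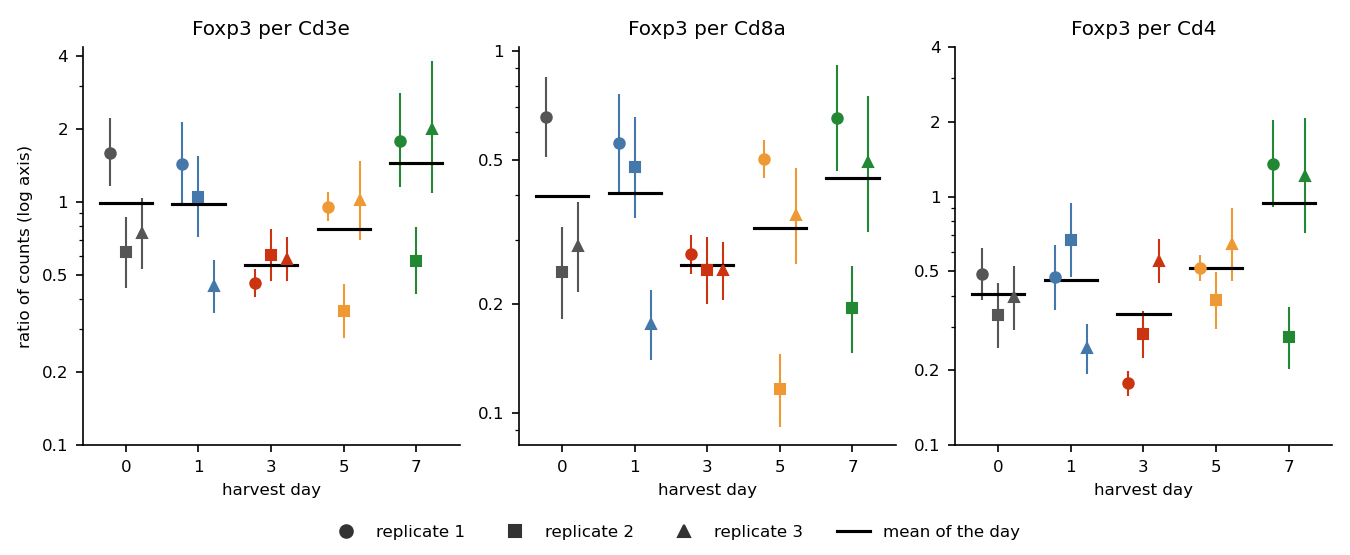
Foxp3 counts divided by Cd3e, Cd8a or Cd4 counts in each tumor (log axis) by harvest day, with bars for the 95% counting interval and a line at the mean of a day. The 3 day 3 tumors agree closely per Cd3e (0.466 to 0.608) and per Cd8a (0.248 to 0.275) and less so per Cd4 (0.177 to 0.551).

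Set against Cd3e, the other genes differed in how much their ratio moved. Tnfrsf18 per Cd3e varied least, 3.21-fold between the lowest and highest tumor, followed by Il10 (3.94-fold) and Foxp3 (5.59-fold), and Tnfrsf9 varied most (67.3-fold). Median Il2ra per Cd3e was 3.75 in untreated tumors and 4.46, 1.38, 2.05 and 2.44 on days 1, 3, 5 and 7. Median Ikzf2 per Cd3e was 2.16, 3.0, 0.773, 0.756 and 3.79 on days 0, 1, 3, 5 and 7. The lowest median was on day 3 for Il2ra and on day 5 for Ikzf2, and the day 7 median was below day 0 only for Il2ra. These ratios are descriptions, and only those of Foxp3 were tested.

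Across the 15 tumors Foxp3 varied with T cell transcripts (log2 CPM, 10 relations tested, 100000 permutations). With Cd3e Pearson's r was 0.863 (permutation p = 1e-05, the smallest the permutations can give, adjusted p = 5e-05) and Spearman's rho 0.807 (adjusted permutation p = 0.0014). With Cd4 r was 0.870 and rho 0.857 (adjusted permutation p = 5e-05 and 0.00065), and with Cd8a r was 0.798 and rho 0.771 (adjusted permutation p = 0.000133 and 0.00175). Leaving out the 2 tumors farthest from the median of the other gene gave r of 0.762, 0.768 and 0.705. The permutations shuffled tumors of all days, so differences between days enter these p-values. Within days, as deviations from day means, r was 0.734, 0.802 and 0.603, so the relation was also seen among tumors of the same day. No p-value was computed for these within-day values.

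Of the other regulatory T cell genes, Tnfrsf4, Tnfrsf18 and Il2ra also varied with Foxp3, with r of 0.889, 0.889 and 0.815 and rho of 0.786, 0.818 and 0.850 (adjusted permutation p from 5e-05 to 0.000133 for r and from 0.00065 to 0.00174 for rho). Without the 2 farthest tumors their r stayed at 0.691, 0.775 and 0.777. Over all 15 tumors their r with Cd3e was 0.919, 0.956 and 0.826, and with Cd4 0.930, 0.956 and 0.880. Each of these was higher than the r of the same gene with Foxp3. With Cd8a their r was 0.886, 0.933 and 0.768, higher than with Foxp3 only for Tnfrsf18. The relation with Foxp3 was thus no closer than that with general T cell transcripts such as Cd3e and Cd4. Ccr8, Ikzf2 and Il10 had r of 0.840, 0.823 and 0.661 and rho of 0.739, 0.507 and 0.614 (adjusted permutation p of 0.000443, 0.000862 and 0.00577 for r and 0.00364, 0.0623 and 0.0209 for rho). Their r was 0.513, 0.446 and 0.422 without the 2 farthest tumors, so these relations rested in large part on those tumors. Tnfrsf9 had r of 0.156 and rho of 0.336 (permutation p = 0.578 and 0.22). Its low r rested on 2 tumors, since r was 0.697 without day 1 replicate 3 and day 3 replicate 1, its highest and lowest tumors, and 0.417 without the replicate 1 tumors of day 3 and day 5.

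**Figure D4:**
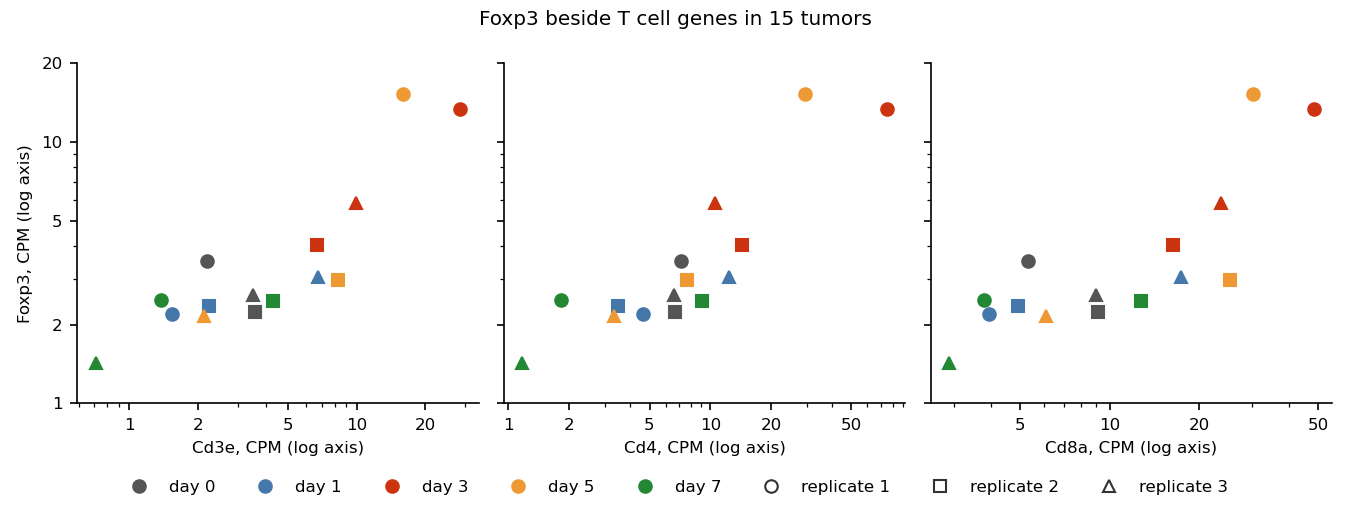
Foxp3 level against Cd3e, Cd4 and Cd8a levels (CPM, both axes log) with 1 point per tumor, color for the harvest day and shape for the replicate number. Day 3 replicate 1 and day 5 replicate 1 lie at the top right of each panel, and the remaining 13 tumors follow the same direction with Foxp3 between 1.42 and 5.84 CPM.

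The 10 genes tested whose log2 levels were most like Foxp3 by Pearson's r over the 15 tumors were Kcna2, Samsn1, Itgae, Blk, Hs3st3b1, Sla2, Zfp605, Clec7a, Faah and Ttc30a1, with r from 0.909 for Ttc30a1 to 0.930 for Kcna2. Itgae encodes the CD103 integrin chain of tissue T cells and some dendritic cells, Blk is a Src family kinase of lymphocytes and Sla2 an adaptor that dampens T cell receptor signalling. These are only some of the 10, and the cells that transcribed the 10 genes were not tested. By Spearman's rho the closest of the 10 was Clec7a, at 0.921. Without both replicate 1 tumors of day 3 and day 5 the r of the 10 genes lay between 0.709 for Kcna2 and 0.867 for Blk. In the same ranking Tnfrsf4 stood at place 44 of 15493 and Tnfrsf18 at 48, Cd4 at 141 and Cd3e at 201, but Il10 at 3215 and Tnfrsf9 at 6520. The likeness is a description over these tumors, 2 of which set much of the range.

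Other genes known from regulatory T cells were described by lists. Of 12 tested surface genes, 11 had a positive log2 fold change on day 3, with a median of 1.01 against -0.02 for all genes tested. They ran from -0.66 ± 0.18 (SE) for Nt5e, the ecto-enzyme CD73, to 1.65 ± 0.74 for the costimulator Icos (edgeR adjusted p = 0.115 and 0.161). Ctla4, the inhibitory receptor central to regulatory T cell function, had 1.26 ± 0.71, and Tnfrsf1b, the TNF receptor 2 gene, had 1.11 ± 0.32. Nt5e was below day 0 in each tumor of day 5 and of day 7. Lower levels without overlap were found in 10.8% of all genes on day 5 and in 6.26% on day 7. No gene of the list was called by edgeR on day 3, and DESeq2 called Tnfrsf1b higher and Nt5e lower. DESeq2 called 2003 of 15494 genes in either direction on day 3, 1397 of them higher. A single gene higher of 12 is near the 9.02% of all genes that DESeq2 called higher.

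On day 5, 10 of the 12 were positive with a median of 0.47, from -0.27 for Nt5e to 1.33 for Icos. Without day 5 replicate 1, 4 of 12 were positive and the median was -0.09. On day 3 without day 3 replicate 1, 10 of 12 remained positive with a median of 0.44. The count on day 5 thus leaned on 1 tumor, whereas on day 3 the count hardly moved and the median was lower.

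Of 16 tested transcription factor and effector genes, 13 had a positive log2 fold change on day 3 with a median of 0.66. The highest was Irf4, a factor of effector regulatory T cells and of other activated lymphocytes, with 2.39 ± 0.84 (SE), and the lowest was Areg, which encodes the tissue repair factor amphiregulin, with -1.14 ± 0.45 (edgeR adjusted p = 0.118 and 0.135). Batf, a partner of IRF4, had 1.93 ± 0.67, Ikzf4, which encodes Eos, had 1.06 ± 0.53 and Ebi3, a subunit of IL-35, had 1.54. DESeq2 called 5 of the 16 higher (Batf, Irf4, Bach2, Satb1 and Ebi3), where it called 9.02% of all genes higher with all tumors and 0.280% without day 3 replicate 1. On day 5 the median was 0.33, with Irf4 again highest at 1.45, and on day 7 against day 3 it was -0.94. Without day 3 replicate 1 the day 3 median was 0.32 with 11 of 16 positive.

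These medians stood beside larger ones for T cells in general. Against day 0, the median log2 fold changes of the 14 T cell markers were 2.08 (day 3), 1.39 (day 5) and -0.39 (day 7), where those of the 8 regulatory T cell genes were 0.96, 1.08 and -0.31. Without day 3 replicate 1 the day 3 medians were 1.40 and 0.65, and without day 5 replicate 1 the day 5 medians were 0.63 and -0.17. None of the 14 T cell markers was at 0 in any tumor, and their summed level was 691 CPM in day 3 replicate 1, 354 CPM in day 5 replicate 1 and 28.2 to 223 CPM in the others. Dendritic cell markers moved with the same tumors, at a mean log2 CPM of 3.32 in day 3 replicate 1, 2.59 in day 5 replicate 1 and -0.25 to 1.42 in the other 13. The NK cell markers stood at a median of 1.78 (log2) above day 0 on day 3. The part of any of these cell types in the levels of Il2ra, Tnfrsf4, Tnfrsf18 and Il10 was not tested.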

How the data were processed

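Poly(A) RNA of 15 tumors was sequenced, and the authors quantified it with kallisto against mm10 (GRCm38) and combined transcripts into genes with tximport. The deposited values are estimated counts, rounded to whole numbers, with each tumor in its own column. Kallisto and the build are also named in the submitters' processing notes, and the transcript set was not given in the sources used here. Kallisto divides shared reads among transcripts, so counts of overlapping genes are uncertain. The p-values of comparisons between days measure the spread between tumors of a day. Those of the correlations came from shuffling all 15 tumors across days, so differences between days also enter them.

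Of 32544 entries, 1 named as a date (at most 0.0268% of a tumor's counts) was left out. Names matched GENCODE M21 symbols for 31469 entries. The study's filter (more than 0.366 CPM, in 3 tumors or more) left 15494 genes, all 8 members among them. The fit was edgeR 4.0.16 (R 4.3.3) with TMM, harvest day as the only term, all 15 tumors and two-sided quasi-likelihood F tests, with Benjamini-Hochberg adjusted p over the 15494 genes called at 0.05. Log2 CPM used a prior count of 2. Alternatives were DESeq2 1.42.0, other scaling, no filter, a replicate block, fits of 2 groups and leaving out tumors. DESeq2 without 1 tumor, and fits without both replicate 1 tumors of day 3 and day 5, were added after the data were seen. Ratios used exact permutation tests, and intervals cover counting error only. Scripts were tested on simulated data.

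The genes and lists were chosen with earlier results of these data known. The text names the 8 members, their denominators, receptor and ligand partners, the extremes of each list on day 3 and day 5, and the 10 genes most like Foxp3. Stat5b, Il10rb, Ctla4, Tnfrsf1b, Batf, Ikzf4, Ebi3, Bach2 and Satb1 were named after their values were seen.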

Additional observations from a re-analysis of the deposited data

How the results depend on the processing

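Across 15 tumors the 8 genes were called 0 times by edgeR in each comparison, under TMM or other scaling, with or without the filter, with 2 groups only and with any 1 tumor left out. In the main fit edgeR also called 0 of all 15494 genes. Without day 3 replicate 3 it called 2104 of 15439 genes between day 3 and day 7, and no member was among them. Without day 1 replicate 3 it called 61 of 15455 genes on day 3 and 58 between day 3 and day 7. DESeq2 called 1 of 8 on day 3 (9.02% of all genes higher) and 4 of 8 between day 3 and day 7 (15% lower), and none in either comparison without day 3 replicate 1. Without day 5 replicate 1 it called 3 on day 3 (9.26%), 6 between day 3 and day 7 (15.4%) and 3 over the 5 days (8.68%). The cause was not tested.

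In all, 53 values over 25 results changed sign, 39 of them with 1 tumor left out. With each tumor left out in turn, log2 fold changes on day 1 ranged from -0.29 to 0.069 for Foxp3, -0.31 to 0.31 for Il2ra, -0.14 to 0.44 for Tnfrsf4, -0.24 to 0.47 for Tnfrsf9, -0.25 to 0.78 for Tnfrsf18, -0.35 to 0.024 for Ccr8 and -0.11 to 1.91 for Il10. On day 3 they ranged from -0.16 to 0.62 for Ikzf2 and -0.18 to 0.34 for Tnfrsf9. On day 5 they ranged from -0.12 to 1.71 for Foxp3, -0.82 to 1.03 for Il2ra, -0.49 to 0.17 for Ikzf2, -0.13 to 1.34 for Tnfrsf4, -0.23 to 0.32 for Tnfrsf9 and -0.20 to 1.90 for Ccr8. On day 7 they ranged from -0.96 to 0.13 for Tnfrsf18 and -0.73 to 1.03 for Il10, and for Tnfrsf9 on day 7 against day 3 from -0.44 to 0.079.

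DESeq2 without day 3 replicate 1, and edgeR without both replicate 1 tumors of day 3 and day 5, each gave Ikzf2 -0.17 on day 3. On day 5, DESeq2 without day 5 replicate 1 gave -0.12 for Foxp3, -0.82 for Il2ra, -0.12 for Tnfrsf4, -0.22 for Tnfrsf9 and -0.20 for Ccr8, and edgeR without both tumors gave -0.12, -0.81, -0.12, -0.22 and -0.20. These settings were chosen after seeing the data. They change sign because 1 tumor of the 3 is left out.

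Foxp3 per Cd3e changed sign on day 7 with the summed CD3 genes as denominator (-0.0099, log2) and Foxp3 per Cd8a on day 1 with Cd8a and Cd8b1 summed (-0.061). With each tumor left out in turn, the log2 difference of Foxp3 per Cd3e from day 0 ranged from -0.395 to 0.438 on day 1 and -0.635 to 0.122 on day 5. That of Foxp3 per Cd8a ranged from -0.310 to 0.524 on day 1, -0.831 to 0.228 on day 5 and -0.219 to 0.658 on day 7, and that of Foxp3 per Cd4 from -0.234 to 0.490 on day 1. The 5-day permutation p of Foxp3 per Cd4 ranged from 0.0276, without day 7 replicate 2, to 0.693.

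The labels number the tumors of each day 1 to 3, but same-numbered tumors as a set did not deviate together. Their 30 correlations of deviations from day means ran from -0.619 to 0.511 with a median of -0.0959, and 9 exceeded 0.1. The 60 pairs with different numbers had a median of 0.0212, and 28 exceeded 0.1. Some same-numbered pairs were alike, with 0.453 for replicate 1 of day 3 and day 5 and 0.480 to 0.511 among replicate 3 of day 3, day 5 and day 7. With the replicate number as a replicate block, edgeR still called 0 genes and the day 3 values of the 8 genes lay between 0.05 and 2.62 (lowest edgeR adjusted p = 0.182). The 5-day permutation p for Foxp3 per Cd3e was then 0.383.

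Having 3 tumors per day limits every statement, since a permutation test of 2 days cannot go below 0.1. Ccr8 rested on 2 to 79 counts and Il10 on 6 to 174, so differences between low tumors were not detectable at this depth. Skeletal muscle, adipocyte and lymph node markers stood highest in day 3 replicate 1, and their part in the day 3 values was not tested.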
